A study of Mus musculus with 12 samples.

Results

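Retinoic acid (RA) differentiation of R1 mouse embryonic stem cells (mESCs) was followed by RNA sequencing in cells that had received no O-GlcNAc transferase inhibitor. Described here are all genes with at least 1 FPKM (fragments scaled by gene length and library size) in at least 3 of 6 libraries, which were 14019 of the 54555 genes in the deposited table. The 6 libraries were 3 of undifferentiated cells (mESC_control) and 3 of RA-treated cells (RA_control). R1 is an established embryonic stem cell line, so both groups stand for 1 line, grown on gelatin with no feeder layer named in the labels. The mESC_control cells were kept with 1000 U/mL leukemia inhibitory factor (LIF). The RA_control cells had a vehicle (DMSO) pre-treatment, were replated for 24 h, and then spent 48 h in 1 µM RA without LIF. The sources used here do not say whether the mESC_control cells received the vehicle. RA, the lack of LIF, the replating and any difference in time in culture cannot be told apart, and "with RA" below means all of them together. The other 6 libraries of the series came from cells treated with 25 µM of the inhibitor Ac45SGlcNAc and shared the estimate of the spread.

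RA is a lipid hormone made from vitamin A. In the nucleus it is bound by RA receptors (RARs), which sit with retinoid X receptors (RXRs) on DNA elements that are often direct repeats of a short half-site, and the bound receptors turn on genes close by. Well-known targets are the Hox genes, which give cells a position along the head-to-tail axis, and the Cyp26 enzymes, which break RA down. mESCs renew themselves under LIF, which signals through the gp130 receptor and STAT3, and under a network of transcription factors around Pou5f1 (OCT4), Sox2 and Nanog.

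The sequences before the start sites of Cyp26a1 and Rarb are shown because each holds such a repeat and both genes rose with RA. They are the 250 bases upstream of the RefSeq start (GRCm38.p6), at chr19:37697558-37697807 on the plus strand for Cyp26a1 and chr14:16575477-16575726 on the minus strand for Rarb. Capitals mark a pair of 6-base half-sites with 5 bases between them (a DR5 repeat).
Cyp26a1: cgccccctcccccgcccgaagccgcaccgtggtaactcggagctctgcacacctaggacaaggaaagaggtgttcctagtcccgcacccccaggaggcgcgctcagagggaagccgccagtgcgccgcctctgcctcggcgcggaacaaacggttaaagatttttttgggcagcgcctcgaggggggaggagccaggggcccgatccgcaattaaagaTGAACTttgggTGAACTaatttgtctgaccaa
Rarb: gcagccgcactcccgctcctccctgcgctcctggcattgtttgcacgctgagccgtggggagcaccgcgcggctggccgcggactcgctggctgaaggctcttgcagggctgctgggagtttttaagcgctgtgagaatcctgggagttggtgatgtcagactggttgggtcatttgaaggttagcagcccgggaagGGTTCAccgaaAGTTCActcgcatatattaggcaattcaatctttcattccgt
The search took the classic half-site AGGTCA and also the related form AGTTCA as well as the variant GGGTCA and the further variant GGTTCA on both strands, in any pairing, from 250 bases before to 50 after each start. In Cyp26a1 the repeat lies on the strand opposite to the gene. Of 32851 promoters in the RefSeq table, 32 (0.0974%) held a match, as did 3 of the 9558 tested genes that could be matched (0.0314%). Cyp26a1 and Rarb were 2 of 651 genes called at least 2-fold higher (0.307%), none of 636 called at least 2-fold lower held one, and the other match was in 1 of 2326 genes not called (0.043%). None of the 22 Hox genes with a promoter in the table had a match in this window.

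The 6 libraries held 15553627 to 17199465 fragments assigned to genes, and the first principal component, with 87.5% of the variance, separated the 3 RA_control from the 3 mESC_control libraries. Replicates within a group differed by more than counting noise (chi-square per gene of 4.22 to 9.96 on recovered fragments). The labels do not say what the replicate numbers stand for, and every p-value therefore rests on a spread between libraries that could be technical. More genes reached 1 FPKM with RA (13790 to 13993 per library against 12931 to 13124), and ribosomal RNA took more of the fragments (0.185% to 0.219% against 0.127% to 0.149%; exact permutation p = 0.1 for both, two-sided, the smallest that 3 against 3 allows). The share of mitochondrial mRNA was 0.670% to 0.777% with RA and 0.766% to 0.816% without (exact permutation p = 0.2).

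Most of the transcriptome moved. Genes were tested with limma on log2(FPKM + 1), and a gene is said to rise, fall or be called where its p, adjusted after Benjamini and Hochberg for all 14019 genes, was under 0.05. By this test 72.2% of the genes were called, 4711 higher (33.6%) and 5416 lower (38.6%). Counts over gene lists below are to be read beside these shares. At 2-fold or more, 1103 rose (7.87%) and 931 fell (6.64%). At 4-fold or more the counts were 159 and 104, and at 8-fold or more 35 and 23. The libraries of the groups did not overlap for 4861 genes higher (34.7%) and 5582 genes lower (39.8%). The log2 changes, which are differences of mean log2(FPKM + 1) and understate the change of low genes, had a median of -0.05, with the middle 90% between -1.11 and 1.22. The deposited FPKM carry a scaling between libraries, and without it the median was 0.14, or 0.17 as TPM. Higher genes were then 62.4% (plain FPKM) or 62.9% (TPM) of the calls in place of 46.5%. No gene called at 2-fold changed sign under either scaling, and 10 of the smaller calls passed in the opposite direction under each. The largest changes overall were picked among genes whose groups did not overlap. For these, Crabp2, Tdh and Socs3 among them, the lack of overlap is no further result. Most genes named below were taken by a rule (largest changes overall and in each gene list). The others were chosen from the lists after their values were seen. Their own calls were not followed through the alternatives, so small changes among them may depend on the scaling. A value written with ± is the mean and SD of 3 libraries.

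**Figure D1:**
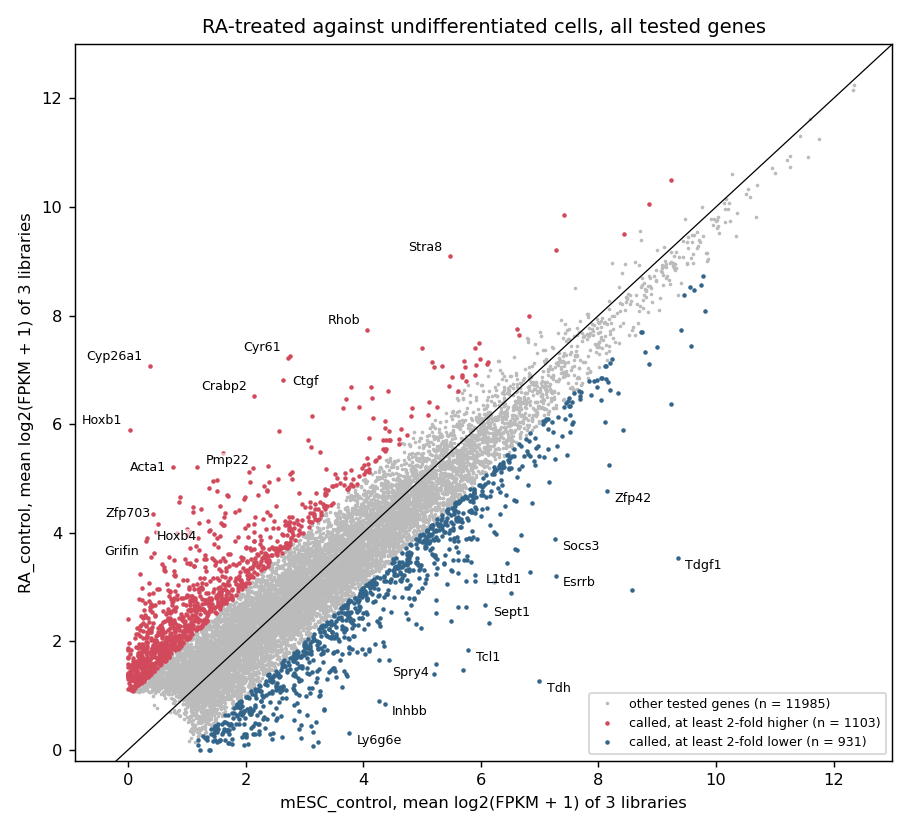
Mean log2(FPKM + 1) of the 3 mESC_control libraries (horizontal) against the 3 RA_control libraries (vertical), 1 point per tested gene, with called changes of at least 2-fold in colour and the line of equal level. The 1103 higher genes lie mostly at low levels in mESC_control, and the labelled genes are among the 12 largest rises and the 12 largest falls among protein-coding genes with at least 5 FPKM in a group.

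Genes that handle RA itself were among the strongest risers. Cyp26a1 (ENSMUSG00000024987, chromosome 19, 37697808 to 37701528, GRCm38), the main RA-degrading enzyme of early embryos, stood at 0.323, 0.337 and 0.213 FPKM in mESC_control and 137, 124 and 141 FPKM in RA_control. Every RA_control library was above 100 FPKM and every mESC_control library below 1, the largest rise of a protein-coding gene with at least 5 FPKM in a group (log2 change 6.71, SE 0.0956, adjusted p = 6.27e-13). Its relatives Cyp26b1, at 0.249, 0.149 and 0.141 FPKM in mESC_control and 6.89, 6.56 and 7.23 FPKM in RA_control, and Cyp26c1, from 0.222 ± 0.193 to 1.82 ± 0.360 FPKM (log2 change 1.21), rose too. Crabp2, which carries RA into the nucleus, measured 2.74, 3.57 and 4.09 FPKM in mESC_control and 99.2, 79.3 and 95.9 FPKM in RA_control, again with no overlap (log2 change 4.38, SE 0.114, adjusted p = 5.54e-11).

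Of 18 genes of RA uptake, synthesis and breakdown, 14 were tested, 12 rose and 2 fell, 9 and 1 of them at least 2-fold. Crabp1, a cytosolic RA carrier, rose from 50.7 ± 0.742 to 89.1 ± 7.999 FPKM (log2 change 0.80). The retinol-uptake receptor Stra6 went from 0.150 ± 0.0216 to 3.27 ± 0.230 FPKM (log2 change 1.89), and Dhrs3, which turns retinaldehyde back into retinol, from 0.913 ± 0.109 to 5.44 ± 0.199 FPKM (log2 change 1.75). Aldh1a2, an RA-making enzyme, rose from 1.85 ± 0.0539 to 5.99 ± 0.359 FPKM (log2 change 1.29), and Dhrs4, which can reduce retinaldehyde, fell from 9.33 ± 1.1 to 3.91 ± 0.112 FPKM (log2 change -1.07). Lrat, Aldh1a1, Aldh1a3 and Aldh1a7 stayed below the level needed for testing. Of the members tested, 4 reached 1 FPKM in the RA_control libraries alone, and such genes could hardly have been tested without rising. The same holds for every riser named below whose mESC_control libraries were all under 1 FPKM.

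The receptors moved less. Among 15 tested receptors, coregulators and orphan nuclear receptors 7 rose and 6 fell (3 fell as TPM or plain FPKM), and the median of -0.06 changed sign with the scaling. Rarb and Nrip1, 2 of those that rose, reached 1 FPKM in the RA_control libraries alone. Of the other 13, 5 rose and 6 fell. Rarb, known to be induced by RA, measured 0.109, 0.114 and 0.0717 FPKM in mESC_control and 1.67, 1.83 and 1.29 FPKM in RA_control, with no overlap (log2 change 1.24, SE 0.111, adjusted p = 9.85e-07), and was the member of the list that changed at least 2-fold. Rarg, the most abundant RAR per length here, fell from 69.1 ± 3.40 to 35.5 ± 2.83 FPKM (log2 change -0.94), and Rara from 21.4 ± 1.08 to 15.6 ± 1.74 FPKM (log2 change -0.44). The partner Rxra rose from 7.08 ± 0.379 to 12.97 ± 0.293 FPKM (log2 change 0.79). Nrip1, a corepressor of nuclear receptors, rose from 0.782 ± 0.0839 to 2.30 ± 0.146 FPKM (log2 change 0.89).

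Outside the Hox clusters, 10 genes listed as RA-induced were tested, 5 of which reached 1 FPKM in the RA_control libraries alone. Of the other 5, 3 rose and 2 fell. Stra8 (ENSMUSG00000029848, chromosome 6, 34920163 to 34939344, GRCm38), which later controls entry into meiosis, was already expressed without RA and rose further, from 43.5 ± 2.04 to 546 ± 14.2 FPKM, with 548, 531 and 559 FPKM in the RA_control libraries (log2 change 3.62, SE 0.0563, adjusted p = 9.75e-13). The transcriptional corepressor Zfp703 measured 0.394, 0.549 and 0.315 FPKM in mESC_control and 18.4, 16.1 and 16.1 FPKM in RA_control (log2 change 3.65, SE 0.0881, adjusted p = 3.12e-11). Its paralogue Zfp503 rose from 0.156 ± 0.0940 to 3.91 ± 0.665 FPKM (log2 change 2.08) and the receptor tyrosine kinase Ret from 1.13 ± 0.165 to 6.09 ± 0.108 FPKM (log2 change 1.74). Tgm2 and Skap2, both listed as RA-induced, fell (log2 changes -0.42 and -0.50).

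**Figure D2:**
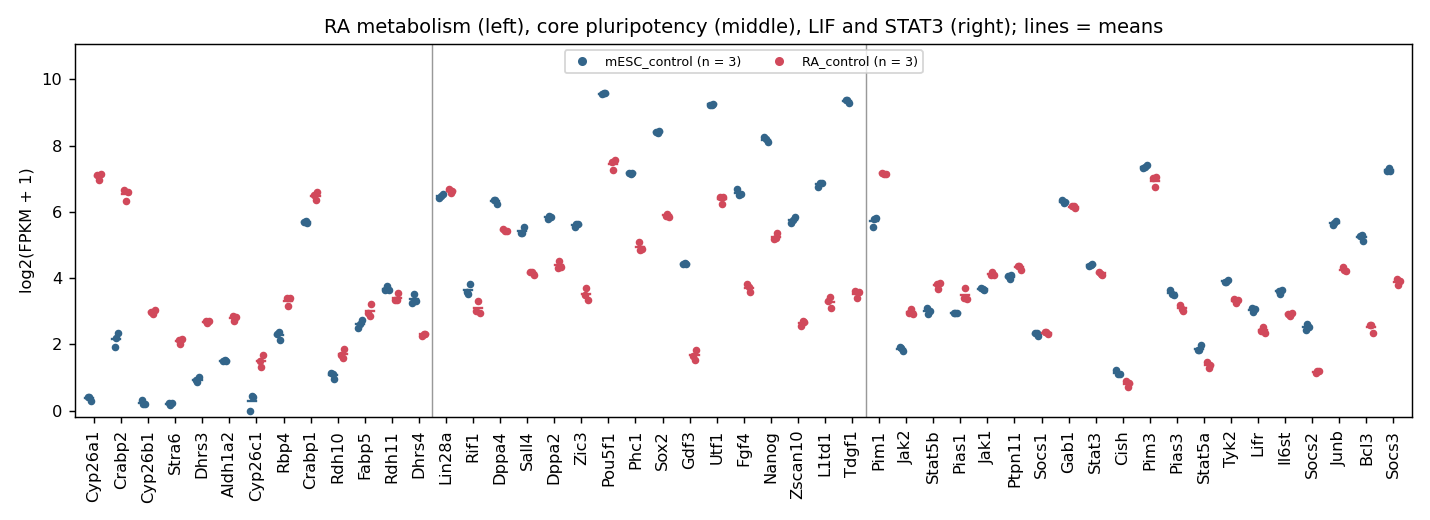
log2(FPKM + 1) in each of the 3 mESC_control and 3 RA_control libraries for tested genes of RA metabolism, core pluripotency and the LIF and STAT3 pathway, ordered by change within each panel, with lines at the group means. Cyp26a1 and Crabp2 open the left panel far above their mESC_control levels, most core pluripotency genes sit lower with RA, and Socs3 closes the right panel with the largest fall of that list.

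Hox genes of all 4 clusters rose, those of the B cluster most. Hoxb1 (ENSMUSG00000018973, chromosome 11, 96365752 to 96368256, GRCm38), a hindbrain Hox gene, was near 0 without RA, with 2 fragments in the 3 mESC_control libraries together, and stood at 62.05, 62.7 and 51.7 FPKM with RA, so no fold is given (adjusted p = 5.21e-13). Hoxd13 measured 0.768, 0.402 and 0.684 FPKM in mESC_control and 3.94, 4.87 and 4.44 FPKM in RA_control (log2 change 1.75, SE 0.117, adjusted p = 7.60e-08). Hoxb4 went from 0.259 ± 0.0850 to 13.98 ± 0.837 FPKM (log2 change 3.57), Hoxb7 from 0.319 ± 0.126 to 10.7 ± 0.461 FPKM (log2 change 3.15) and Hoxb9 from 0.626 ± 0.153 to 10.7 ± 1.16 FPKM (log2 change 2.85). Of the 39 Hox genes 18 were tested, 14 of which reached 1 FPKM in the RA_control libraries alone. Among the 18, 16 rose, 15 of them at least 2-fold, none fell, and Hoxb13 and Hoxc13 were not called (log2 changes 0.31 and 0.09). Per length, the order within the B cluster with RA was led by Hoxb1, Hoxb4, Hoxb9 and Hoxb7, with no overlap between neighbours except the last pair. The genes of the C and D clusters stayed below these 4, with Hoxd1 at 3.84 and Hoxc4 at 2.58 FPKM on average. Hoxb6 and Hoxb8 were listed at 0 in every mESC_control library and reached 1.92 and 2.73 FPKM.

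Just below the limit for testing lay further Hox and related genes. Hoxa2, Hoxb2 and Hoxb5 averaged 1.07, 1.13 and 1.06 FPKM with RA and were listed at 0 without, and Cdx2 and Meis1 averaged 1.25 and 1.01 FPKM. The rule kept 1420 genes that reached 1 FPKM in exactly 3 libraries, 893 of them in all RA_control and 313 in all mESC_control libraries, and left out 666 that did so in exactly 2. The sources used here do not state whether counting used strand, and transcripts on opposite strands of the Hox clusters cannot be separated. This touches Hotairm1, a non-coding RNA antisense to the start of the Hoxa cluster, which measured 0.372, 1.102 and 1.17 FPKM in mESC_control and 25.4, 23.3 and 23.6 FPKM in RA_control, the largest rise of a non-coding gene (log2 change 3.77, SE 0.167, adjusted p = 2.68e-09).

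**Figure D3:**
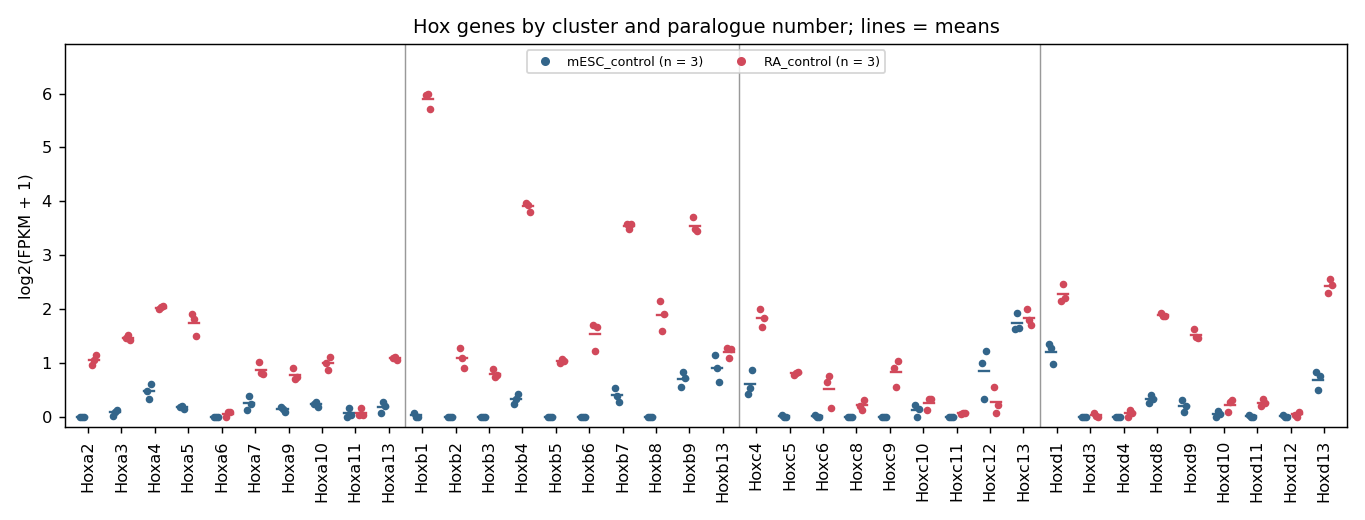
log2(FPKM + 1) of Hox genes in the 3 mESC_control and 3 RA_control libraries, by cluster and paralogue number, with lines at the group means. Hoxb1 is highest with RA, Hoxb4, Hoxb7 and Hoxb9 lead the rest of the B cluster, and Hoxc12 is lower with RA at levels too low for testing.

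Of 11 tested Meis, Pbx, Pknox, Tgif and Cdx genes, 2 reached 1 FPKM in the RA_control libraries alone. Of the other 9, 6 rose and 3 fell. Cdx1, which activates Hox genes, measured 4.32, 5.77 and 4.14 FPKM in mESC_control and 21.3, 21.4 and 22.1 FPKM in RA_control (log2 change 1.99, SE 0.0974, adjusted p = 5.80e-09). Meis2 went from 0.185 ± 0.0469 to 2.26 ± 0.157 FPKM (log2 change 1.46) and Pknox2 from 0.195 ± 0.0360 to 1.72 ± 0.194 FPKM (log2 change 1.18). Tgif1, a repressor that can oppose RA and Nodal signalling, fell from 32.8 ± 2.18 to 7.88 ± 0.282 FPKM (log2 change -1.93).

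Pluripotency genes fell almost without exception, though from high levels and not to 0. Pou5f1 (ENSMUSG00000024406, chromosome 17, 35506018 to 35510772, GRCm38) stood at 746, 761 and 765 FPKM in mESC_control and 179.8, 152 and 188 FPKM in RA_control, and all RA_control libraries were below all mESC_control libraries (log2 change -2.13, SE 0.0808, adjusted p = 8.14e-10). Nanog measured 303, 290.3 and 272 FPKM in mESC_control and 35.5, 36.1 and 39.7 FPKM in RA_control, and Sox2 340.5, 329.8 and 348 FPKM in mESC_control and 58.1, 60.3 and 56.3 FPKM in RA_control. The groups did not overlap for either gene (log2 changes -2.93 and -2.52). Tdgf1, the Nodal co-receptor Cripto, had the largest fall of a protein-coding gene with at least 5 FPKM in a group, at 668, 665 and 624 FPKM in mESC_control and 11.1, 9.55 and 10.9 FPKM in RA_control (log2 change -5.83, SE 0.0711, adjusted p = 4.26e-13).

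Of 17 core pluripotency genes 16 were tested, 15 fell, 13 of them at least 2-fold, and 1 rose, with a median of -2.37. Also lower were L1td1, an RNA-binding protein, from 113 ± 6.28 to 8.71 ± 1.12 FPKM (log2 change -3.56), Zscan10 from 53.1 ± 3.08 to 5.23 ± 0.321 FPKM (log2 change -3.12), Fgf4 from 94.7 ± 6.28 to 12.1 ± 1.05 FPKM (log2 change -2.88) and Utf1 from 604 ± 6.81 to 81.9 ± 6.09 FPKM (log2 change -2.87). Dppa4 and Sall4 fell less (log2 changes -0.87 and -1.28). Lin28a, which blocks let-7 processing, was the riser, from 88.4 ± 4.19 to 97.5 ± 3.68 FPKM (log2 change 0.14).

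Naive pluripotency genes followed, with 17 of 18 falling, 13 at least 2-fold, and a median of -1.83. Esrrb (ENSMUSG00000021255, chromosome 12, 86361117 to 86521628, GRCm38), an orphan nuclear receptor of the naive network, measured 152, 150.5 and 158 FPKM in mESC_control and 8.51, 8.16 and 8.13 FPKM in RA_control (log2 change -4.06, SE 0.0555, adjusted p = 5.21e-13). Zfp42 (Rex1) went from 284 ± 8.40 to 26.2 ± 0.453 FPKM (log2 change -3.39), Tcl1 from 54.4 ± 2.93 to 2.59 ± 0.394 FPKM (log2 change -3.95), Prdm14 from 18.4 ± 2.17 to 0.885 ± 0.187 FPKM (log2 change -3.37) and Klf4 from 74.0 ± 2.59 to 7.55 ± 0.0905 FPKM (log2 change -3.13). Its relative Klf2 fell less, from 270.3 ± 29.5 to 187 ± 11.4 FPKM (log2 change -0.52), and Dppa5a, the most abundant of the list, went from 3435 ± 39.3 to 2436 ± 289 FPKM (log2 change -0.50). Dppa3 (Stella) rose, from 2.75 ± 0.439 to 5.86 ± 0.835 FPKM (log2 change 0.87).

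Formative and primed genes moved in both directions. Of 11 tested, 3 rose and 5 fell, and the median changed sign with the scaling. Otx2 and Lef1, 2 of those that fell, reached 1 FPKM in the mESC_control libraries alone and could hardly have been tested without falling. Of the other 9, 3 rose and 3 fell. Fgf5, a marker of the primed state, stayed under 0.1 FPKM in both groups on average (0.0519 and 0.0673). Otx2 measured 5.11, 7.95 and 7.35 FPKM in mESC_control and 0.239, 0.152 and 0.117 FPKM in RA_control, with no overlap (log2 change -2.72, SE 0.120, adjusted p = 2.61e-09), Tcf15 fell from 124 ± 4.24 to 47.4 ± 2.43 FPKM (log2 change -1.37) and Lef1 from 1.43 ± 0.123 to 0.196 ± 0.0466 FPKM (log2 change -1.02). Sox3 was the large exception, rising from 4.27 ± 0.348 to 29.6 ± 1.27 FPKM (log2 change 2.54). Pou3f1 was not called (4.39 ± 0.734 and 4.78 ± 0.169 FPKM, log2 change 0.11). In a bulk library, fewer cells of a type and less RNA of a gene per cell cannot be told apart, which holds for each of these genes.

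Non-coding genes moved in both directions. Of 227 long intergenic RNA genes 63 rose and 91 fell, beside 33.6% and 38.6% of all genes. Among 131 antisense genes 44 rose and 28 fell. Of 96 snoRNA genes 25 rose and 3 fell, and of 66 miRNA genes 16 rose and 4 fell. Neither short class rose more often than all genes, few members fell, and most were not called. How many of them were tested through the RA_control libraries alone was not counted. Gm46332, a long intergenic RNA, measured 59.1, 46.8 and 47.8 FPKM in mESC_control and 1.26, 1.75 and 2.50 FPKM in RA_control (log2 change -4.22, SE 0.188, adjusted p = 2.80e-09). Of transcripts named as pluripotency-associated, Platr10 fell from 35.7 ± 0.948 to 1.64 ± 0.0784 FPKM (log2 change -3.80) and Platr7 from 5.18 ± 0.479 to 0.180 ± 0.0590 FPKM (log2 change -2.39). A further non-coding gene, 4930444M15Rik, fell from 9.11 ± 0.748 to 0.725 ± 0.413 FPKM (log2 change -2.58). Mir363 and Gm27343 passed with few fragments (25 and 15 in mESC_control, 3 and 1 in RA_control), as did the risers Snord42b and Gm27477 (6 and 3 against 39 and 54).

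Feedback genes of the LIF pathway fell, and its receptor chains fell less. Socs3 (ENSMUSG00000053113, chromosome 11, 117966079 to 117970047, GRCm38), the STAT3-induced inhibitor of gp130 signalling, stood at 151, 158 and 149 FPKM in mESC_control and 14.6, 12.8 and 13.9 FPKM in RA_control (log2 change -3.38, SE 0.0643, adjusted p = 5.31e-12), with no overlap. Bcl3 went from 36.6 ± 2.38 to 4.72 ± 0.535 FPKM (log2 change -2.72), Junb from 49.6 ± 2.14 to 18.1 ± 0.917 FPKM (log2 change -1.40) and Socs2 from 4.75 ± 0.389 to 1.25 ± 0.0515 FPKM (log2 change -1.35). The receptor chains Lifr and Il6st and the factor Stat3 fell by smaller amounts (log2 changes -0.62, -0.68 and -0.26), the last small enough that the scaling may decide it. In all, 13 of 20 tested members fell, 1 of them tested through the mESC_control libraries alone, and 6 rose. Pim1, a kinase also induced by STAT3, rose from 51.7 ± 5.06 to 142 ± 2.28 FPKM (log2 change 1.44), and Jak2 from 2.64 ± 0.166 to 6.89 ± 0.457 FPKM (log2 change 1.11).

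All 5 tested FGF receptors rose, and 4 of 7 ligands fell and 3 rose. Of these 12 genes 2 reached 1 FPKM in the RA_control libraries alone. Besides Fgf4, Fgf17 fell from 8.67 ± 1.103 to 1.12 ± 0.201 FPKM (log2 change -2.19), and Fgf8 rose from 0.969 ± 0.287 to 4.23 ± 0.803 FPKM (log2 change 1.41). Fgfr2 rose from 0.353 ± 0.0660 to 3.01 ± 0.197 FPKM (log2 change 1.57), the receptor-like Fgfrl1 from 6.75 ± 0.573 to 22.0 ± 1.45 FPKM (log2 change 1.57) and Fgfr1 from 16.96 ± 0.617 to 26.4 ± 1.87 FPKM (log2 change 0.61). Of ERK feedback and immediate-early genes 11 of 17 fell, 5 at least 2-fold, and 5 rose. The feedback inhibitor Spry4 measured 36.1, 37.3 and 37.2 FPKM in mESC_control and 1.91, 2.44 and 1.72 FPKM in RA_control (log2 change -3.65, SE 0.0916, adjusted p = 4.44e-11), Spry2 fell from 58.7 ± 2.36 to 7.73 ± 1.05 FPKM (log2 change -2.78), and of the ETS factors Etv4 fell from 86.3 ± 1.77 to 9.83 ± 0.767 FPKM (log2 change -3.01) and Etv5 from 84.1 ± 5.10 to 21.6 ± 1.29 FPKM (log2 change -1.91). The ERK phosphatases did not share the fall: Dusp5 rose from 6.46 ± 1.28 to 16.9 ± 0.382 FPKM (log2 change 1.28), Dusp4 from 9.87 ± 1.15 to 19.9 ± 0.489 FPKM (log2 change 0.95) and Dusp6 from 20.5 ± 1.43 to 27.8 ± 1.37 FPKM (log2 change 0.42).

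In the Nodal and BMP pathway the ligands Nodal and Bmp4 fell and Id1, Id2 and Id3 rose. Nodal fell from 45.4 ± 1.099 to 16.2 ± 2.61 FPKM (log2 change -1.44), Bmp4 from 17.8 ± 1.19 to 4.17 ± 0.484 FPKM (log2 change -1.86) and the inhibitory Smad7 from 29.4 ± 1.55 to 9.60 ± 0.140 FPKM (log2 change -1.52), and Inhbb, a subunit of activin B, from 19.7 ± 1.54 to 0.797 ± 0.222 FPKM (log2 change -3.53). Among the Id genes, dominant-negative helix-loop-helix proteins known as BMP targets, Id1 rose from 154 ± 8.51 to 588 ± 32.5 FPKM (log2 change 1.93), Id2 from 7.76 ± 0.968 to 69.8 ± 3.58 FPKM (log2 change 3.02) and Id3 from 12.9 ± 0.225 to 101.2 ± 4.86 FPKM (log2 change 2.88). Of the other BMP ligands Bmp7 and Bmp8b rose (log2 changes 0.66 and 0.72). Smad2, Smad3 and Smad4 were not called. Over the list, 12 of 23 rose and 8 fell (5 fell as TPM or plain FPKM), 2 of the 23 being tested through the RA_control libraries alone.

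Of 29 tested members of the Wnt pathway, 5 reached 1 FPKM in the RA_control libraries alone. Of the other 24, 13 rose and 10 fell (over all 29, 4 fell as TPM or plain FPKM). Fzd2 rose from 1.93 ± 0.136 to 9.04 ± 0.834 FPKM (log2 change 1.77), the secreted inhibitor Sfrp5 from 2.32 ± 0.466 to 9.58 ± 1.33 FPKM (log2 change 1.68), the feedback inhibitor Nkd1 from 1.61 ± 0.329 to 5.95 ± 0.402 FPKM (log2 change 1.42) and Wnt8a from 0.256 ± 0.154 to 2.22 ± 0.179 FPKM (log2 change 1.36). Fzd5, a frizzled receptor, fell from 22.1 ± 0.878 to 6.03 ± 0.711 FPKM (log2 change -1.72). Axin2, the common readout of canonical Wnt signalling, rose from 3.05 ± 0.166 to 4.08 ± 0.366 FPKM (log2 change 0.33).

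Most lineage markers lay below the limit for testing. Of 25 neural lineage genes 9 were tested, 4 of which reached 1 FPKM in the RA_control libraries alone. Of the other 5, 2 rose and 2 fell, and Pax6 stayed below the limit at 0.158 ± 0.0159 and 0.448 ± 0.0724 FPKM. Irx3 rose from 0.749 ± 0.231 to 5.16 ± 0.388 FPKM (log2 change 1.82) and Sox1 from 0.533 ± 0.177 to 1.24 ± 0.119 FPKM (log2 change 0.55). Both were tested through the RA_control libraries alone and could hardly have been tested without rising. Among neuronal cytoskeleton genes already transcribed in mESC_control, Stmn2 fell from 57.1 ± 3.42 to 23.8 ± 2.67 FPKM (log2 change -1.23) and Tubb3 from 39.1 ± 1.86 to 17.9 ± 1.23 FPKM (log2 change -1.09). The summed level of the list was 105 to 113 FPKM in mESC_control and 64.7 to 70.9 FPKM in RA_control. Neurog1, Egr2 and Dcx averaged at most 0.132 FPKM in either group.

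Of extraembryonic endoderm genes 14 were tested, 5 of them through the RA_control libraries alone and 1 through the mESC_control libraries alone. The other 8 rose, and the summed level of the list was 61.4 to 66.7 FPKM in mESC_control and 102 to 114 FPKM in RA_control. Gata4 measured 2.36, 1.91 and 2.27 FPKM in mESC_control and 6.54, 5.55 and 5.68 FPKM in RA_control and Gata6 1.41, 1.33 and 1.02 FPKM in mESC_control and 4.01, 4.02 and 3.35 FPKM in RA_control, with no overlap (log2 changes 1.12 and 1.09). Plat, tissue plasminogen activator, rose from 0.634 ± 0.0520 to 6.57 ± 0.388 FPKM (log2 change 2.21) and Cited1 from 1.77 ± 0.209 to 5.19 ± 1.00 FPKM (log2 change 1.15). Sox17 went from 0.604 ± 0.213 to 1.92 ± 0.121 FPKM (log2 change 0.87). Plat and Sox17 were among those tested through the RA_control libraries alone. Hnf4a fell, and Fxyd3 was at 0 in every library, with Ttr and Afp under 0.1 FPKM on average.

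Mesoderm and primitive streak genes had 7 of 20 tested, 3 of them through the RA_control libraries alone. Of the other 4, 2 rose and Eomes fell. Foxf1 rose from 0.0706 ± 0.0994 to 2.03 ± 0.324 FPKM, Twist1 from 3.11 ± 0.164 to 8.79 ± 1.48 FPKM (log2 change 1.24) and Snai1, a repressor of E-cadherin, from 4.82 ± 0.0950 to 11.2 ± 1.68 FPKM (log2 change 1.05). Foxf1 was among those tested through the RA_control libraries alone. Brachyury (T) was not tested (0.245 ± 0.215 and 0.561 ± 0.148 FPKM). Of trophoblast genes 4 of 7 tested rose, 1 of the 7 tested through the RA_control libraries alone, and 2 fell, with Esx1 from 5.91 ± 0.849 to 33.6 ± 2.05 FPKM (log2 change 2.33) and Dlx3 from 1.96 ± 0.0961 to 10.1 ± 0.159 FPKM (log2 change 1.91) among the first and Tfap2c from 25.7 ± 2.04 to 10.4 ± 0.751 FPKM (log2 change -1.22) among the second. Tpbpa, Prl3d1, Rhox6 and Rhox9 were at 0 in every library.

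Markers of cells that do not belong to the culture were low, though 3 of the 4 tested fibroblast and feeder markers rose with RA. Of 12 fibroblast and feeder markers 4 were tested, Col3a1, Lum and Dcn were at 0 in all 6 libraries, and the summed level of the list was 16.9 to 17.98 FPKM in mESC_control and 28.2 to 30.8 FPKM in RA_control. Fbln2 rose from 1.36 ± 0.178 to 6.96 ± 0.133 FPKM (log2 change 1.76) and Col1a1 from 1.02 ± 0.210 to 4.60 ± 0.578 FPKM (log2 change 1.47), and Thy1 fell from 9.96 ± 0.613 to 7.61 ± 0.957 FPKM (log2 change -0.35), a call lost as TPM or plain FPKM. Endothelial and blood markers summed to 11.4 to 12.4 FPKM in mESC_control and 8.85 to 11.6 FPKM in RA_control, with Emcn at 0, and the part of either list in the other results was not tested.

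Of 19 listed genes of the 2-cell-like state 16 were tested, 6 of which reached 1 FPKM in the RA_control libraries alone. Of the other 10, 9 rose and Eif1a fell. Zscan4d measured 1.37, 1.14 and 0.776 FPKM in mESC_control and 14.03, 17.3 and 14.1 FPKM in RA_control, with no overlap (log2 change 2.95, SE 0.109, adjusted p = 6.60e-10), and Usp17le 1.86, 1.81 and 1.90 FPKM in mESC_control and 30.0, 28.5 and 32.7 FPKM in RA_control. Zfp352 rose from 0.462 ± 0.266 to 2.44 ± 0.425 FPKM (log2 change 1.24). The Zscan4, Usp17l, Tdpoz4, Gm8300 and Gm5662 genes belong to near-identical families, so reads may be split among copies and the members are not independent. Their summed level in bulk does not show how many cells were in such a state.

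Of 20 tested germline and meiosis genes 3 reached 1 FPKM in the RA_control libraries alone, and of the other 17, 11 rose and 2 fell. Rec8, the meiotic cohesin, went from 7.69 ± 1.17 to 46.9 ± 2.83 FPKM (log2 change 2.47), Dpep3 from 2.71 ± 0.678 to 14.2 ± 0.902 FPKM (log2 change 2.05), Dazl, a germ cell RNA-binding protein, from 15.9 ± 0.667 to 37.8 ± 4.88 FPKM (log2 change 1.19) and Tex101 from 0.607 ± 0.0453 to 2.83 ± 0.263 FPKM (log2 change 1.25). Piwil2 and Tdrd12 of the piRNA pathway fell (log2 changes -0.37 and -0.21), changes small enough that the scaling may decide them. Among paternally expressed imprinted genes 14 were tested, 4 of them through the RA_control libraries alone. Of the other 10, 6 rose and 2 fell, with Nnat from 14.3 ± 1.63 to 78.9 ± 6.06 FPKM (log2 change 2.38) and Mest from 19.6 ± 0.733 to 45.6 ± 4.14 FPKM (log2 change 1.18). Of maternally expressed ones 5 of 11 rose and 2 fell: Cdkn1c, a CDK inhibitor, rose from 9.32 ± 0.850 to 35.0 ± 3.31 FPKM (log2 change 1.80) and H19 from 23.3 ± 1.55 to 51.7 ± 4.81 FPKM (log2 change 1.11), and Phlda2 fell from 35.0 ± 1.28 to 14.8 ± 2.14 FPKM. Of the 11 maternally expressed genes, 1 that fell was tested through the mESC_control libraries alone. Allelic origin was not measured.

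Targets of the actin-regulated factors YAP and SRF held 3 of the 6 largest rises of protein-coding genes with at least 5 FPKM in a group. Cyr61 (ENSMUSG00000028195, chromosome 3, 145646976 to 145649981, GRCm38), a secreted matrix protein, measured 4.34, 5.89 and 6.83 FPKM in mESC_control and 149, 136 and 159 FPKM in RA_control (log2 change 4.49, SE 0.114, adjusted p = 4.50e-11), and its relative Ctgf 4.27, 5.88 and 5.63 FPKM in mESC_control and 107, 106 and 122 FPKM in RA_control (log2 change 4.18, SE 0.0948, adjusted p = 2.50e-11). Acta1, skeletal muscle actin, measured 0.662, 0.692 and 0.738 FPKM in mESC_control and 36.5, 31.6 and 40.4 FPKM in RA_control (log2 change 4.45, SE 0.112, adjusted p = 4.50e-11). None of the 3 genes overlapped between the groups, as the rule for picking the largest rises required. Of 21 tested members 4 reached 1 FPKM in the RA_control libraries alone, and of the other 17, 14 rose and 2 fell. Amotl2 rose from 12.1 ± 0.827 to 87.4 ± 2.22 FPKM (log2 change 2.75), the myosin light chain Myl9 from 1.02 ± 0.577 to 10.52 ± 1.36 FPKM (log2 change 2.55), and Tpm1 from 11.8 ± 0.511 to 28.4 ± 0.741 FPKM. Cardiac actin Actc1 was listed at 0 in every mESC_control library and reached 2.30 FPKM. Actn1 and Tagln2 fell (1 of them as TPM or plain FPKM) and Flna was not called (71.3 ± 2.85 and 70.7 ± 3.62 FPKM).

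Promoters of this list were searched for the CArG box, the SRF site, after the values had been seen. It was found in 7 of 20 members with a promoter in the table (35%), against 146 of 9558 tested genes (1.53%) and 535 of all 32851 promoters (1.63%). Many members of this list are known SRF targets, so the share describes how they were picked. Among genes called at least 2-fold higher the share was 10 of 651 (1.54%) and among those at least 2-fold lower 9 of 636 (1.42%). Shown are the sites of the 3 members that rose most among those with a match, in capitals with 6 bases on each side, at chr8:123894833-123894854 (minus strand), chr2:156775297-156775318 (plus strand) and chr2:114052907-114052928 (minus strand).
Acta1: cgacacCCAAATATGGcttggg
Myl9: cagaggCCTAATAAGGccgggc
Actc1: aggcgaCCAAATAAGGcaaggt
Their first capital lies 73, 161 and 47 bases before the start site.

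Rhob, a small GTPase that controls actin, and Pmp22, a membrane protein of myelin and epithelia, were among the 12 largest rises. Rhob measured 14.6, 17.1 and 15.9 FPKM in mESC_control and 216, 203 and 218 FPKM in RA_control (log2 change 3.66, SE 0.0788, adjusted p = 1.58e-11) and Pmp22 1.43, 0.960 and 1.36 FPKM in mESC_control and 40.0, 32.7 and 35.3 FPKM in RA_control (log2 change 4.04, SE 0.0926, adjusted p = 2.50e-11). Grifin, a galectin-related lens protein, rose from 0.246 ± 0.125 to 13.5 ± 0.968 FPKM (log2 change 3.54). Among the 12 largest falls were also Ly6g6e, of the Ly6 surface protein family, from 12.6 ± 1.57 to 0.243 ± 0.166 FPKM (log2 change -3.46), and septin 1 from 66.6 ± 3.52 to 5.42 ± 1.13 FPKM (log2 change -3.41).

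Cell-cell junction genes fell while simple epithelial keratins rose. Plakoglobin (Jup) fell from 31.9 ± 2.40 to 14.6 ± 0.534 FPKM (log2 change -1.08), E-cadherin (Cdh1) from 123 ± 7.84 to 84.2 ± 2.29 FPKM (log2 change -0.54) and Epcam from 138 ± 1.24 to 89.5 ± 5.80 FPKM (log2 change -0.62). Krt18 rose from 31.0 ± 2.12 to 169 ± 23.7 FPKM (log2 change 2.40), its partner Krt8 from 36.0 ± 1.19 to 133 ± 18.3 FPKM (log2 change 1.85) and Krt19 from 30.8 ± 2.50 to 52.7 ± 6.57 FPKM (log2 change 0.75). In the list 11 of 19 fell and 5 rose. Basement membrane and integrin genes leaned the other way, 14 of 23 rising and 5 falling. Of the 23, 2 reached 1 FPKM in the RA_control libraries alone, and of the other 21, 12 rose and 5 fell. Lamb2 rose from 10.02 ± 0.446 to 27.9 ± 0.787 FPKM (log2 change 1.39), Agrn from 33.6 ± 0.964 to 83.9 ± 5.24 FPKM (log2 change 1.29) and Col4a2 from 15.4 ± 0.481 to 30.7 ± 1.00 FPKM (log2 change 0.95), and Itgb1 from 50.9 ± 1.29 to 86.8 ± 2.51 FPKM (log2 change 0.76). The integrin subunits Itga5 and Itga6 fell, the first from 43.8 ± 1.83 to 24.4 ± 1.29 FPKM (log2 change -0.82) and the other from 27.9 ± 1.45 to 16.4 ± 1.09 FPKM (log2 change -0.73).

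**Figure D4:**
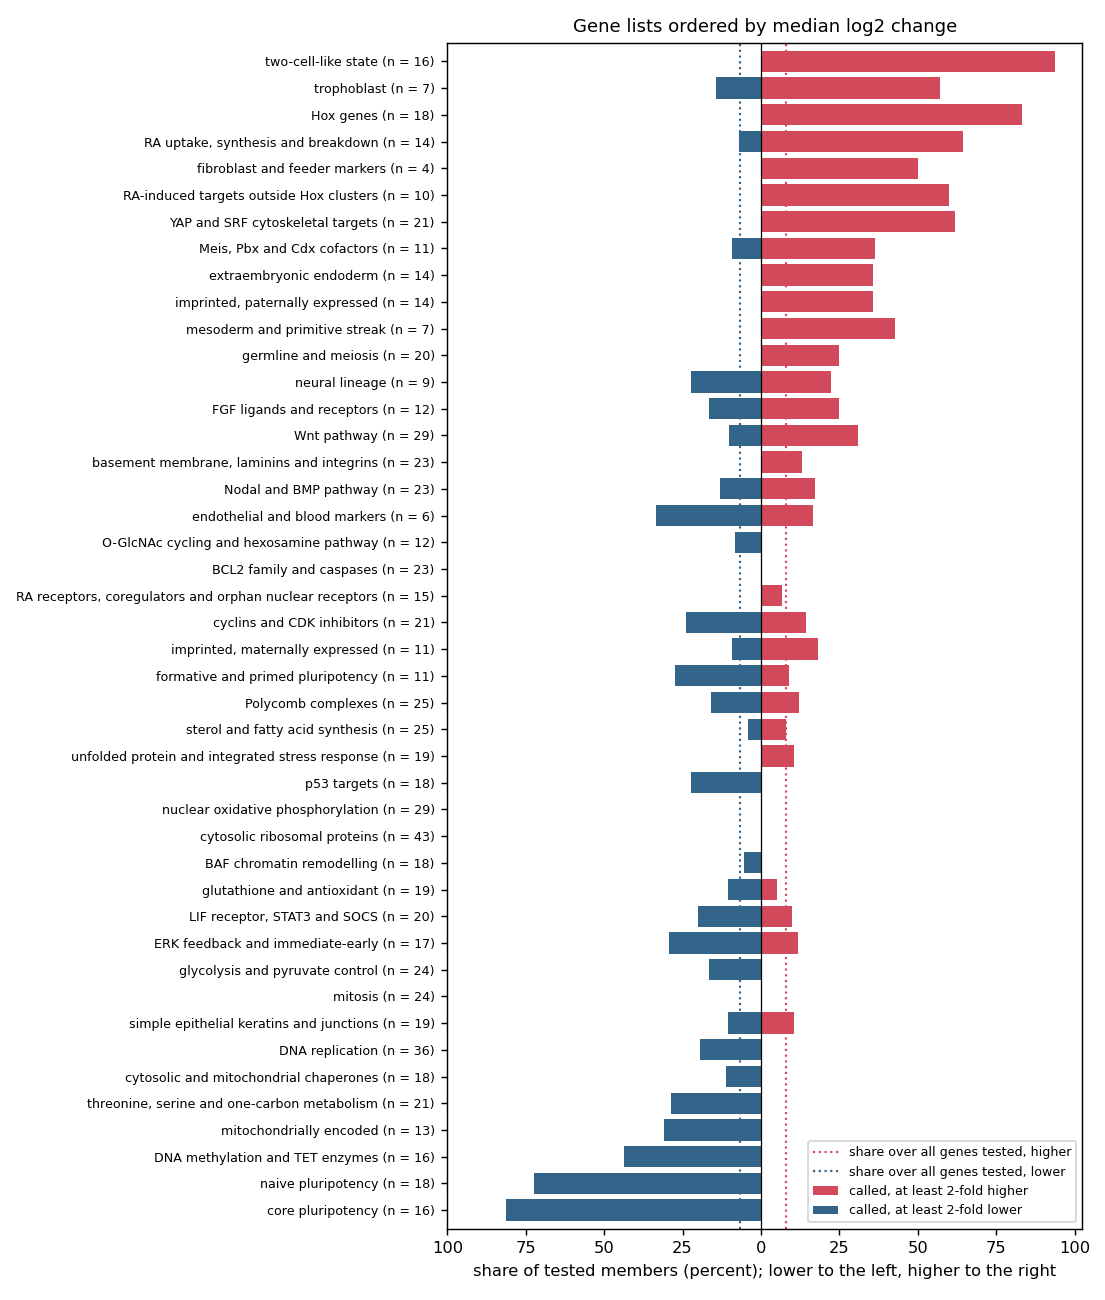
Share of tested members of each of the 44 gene lists called at least 2-fold higher (right) or lower (left) with RA, ordered by median log2 change, with the number tested in brackets and dotted lines at the shares over all 14019 genes (7.87% and 6.64%). The 2-cell-like, Hox, RA metabolism and YAP and SRF lists reach far to the right, each in part through members that reached 1 FPKM with RA alone, and core and naive pluripotency far to the left. The medians of the lists of RA receptors, formative genes, sterol synthesis, cyclins, p53 targets, BCL2 family, stress response, Polycomb and maternally expressed imprinted genes change sign under TPM or plain FPKM.

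Many metabolic genes fell, as did abundant genes at large. Of all tested genes averaging over 100 FPKM 342 of 522 fell, and of those at 20 to 100 FPKM 1471 of 2547. No list count was matched for level. Tdh (ENSMUSG00000021953, chromosome 14, 63492347 to 63509092, GRCm38), which breaks down threonine and is known to be needed by mESCs, measured 110.5, 133 and 138 FPKM in mESC_control and 1.495, 1.35 and 1.36 FPKM in RA_control, with no overlap (log2 change -5.73, SE 0.0896, adjusted p = 9.75e-13). Of 21 tested genes of threonine, serine and one-carbon metabolism 18 fell, 6 at least 2-fold, and none rose. Shmt1 fell from 43.1 ± 2.35 to 12 ± 0.637 FPKM (log2 change -1.76), Mthfd1l from 46.8 ± 0.441 to 18.2 ± 1.16 FPKM (log2 change -1.32) and the glycine cleavage enzyme Gldc from 109 ± 2.72 to 44.3 ± 2.62 FPKM (log2 change -1.28). As TPM or plain FPKM 1 member of the list rose.

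Glycolysis genes fell in 16 of 24 cases and rose in 3, with a median of -0.43. Pdk1, a mitochondrial kinase of pyruvate dehydrogenase, went from 43.9 ± 2.38 to 8.94 ± 0.484 FPKM (log2 change -2.17), Hk2 from 94.1 ± 5.80 to 23.4 ± 1.04 FPKM (log2 change -1.96), Pfkp from 58.5 ± 2.95 to 19.5 ± 1.27 FPKM (log2 change -1.54) and Ldha from 854 ± 3.30 to 380.4 ± 59.9 FPKM (log2 change -1.18). Gapdh, whose many pseudogene copies make its reads uncertain, was listed at 9.61, 114 and 8.01 FPKM in mESC_control and 7.54, 6.58 and 68.1 FPKM in RA_control, varied widely within both groups and was not called. Of 13 mitochondrially encoded genes 9 fell, led by mt-Cytb from 902 ± 37.7 to 271 ± 29.4 FPKM (log2 change -1.74) and mt-Nd2 from 512 ± 40.8 to 172 ± 14.5 FPKM (log2 change -1.57), and mt-Co1, the most abundant, was not called (3106 ± 94.4 and 3163 ± 113 FPKM). Nuclear genes of oxidative phosphorylation fell in 19 of 29 cases with none rising and none at 2-fold. That direction depends on the scaling, since as TPM 7 rose and 10 fell. Sterol and fatty acid genes split, 11 of 25 falling and 5 rising (8 rising as TPM or plain FPKM), beside 38.6% and 33.6% of all genes. The median of this list changed sign with the scaling. The desaturase Scd1 rose from 27.2 ± 0.821 to 70.2 ± 2.37 FPKM (log2 change 1.34) and Scd2 from 112 ± 4.33 to 255 ± 18.9 FPKM (log2 change 1.17).

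Genes of DNA replication fell together, 34 of 36 lower and none higher, though 7 did so at least 2-fold. Mcm10 fell from 29.1 ± 0.573 to 10.6 ± 0.418 FPKM (log2 change -1.38), Mcm5 from 205 ± 5.81 to 87.4 ± 12.3 FPKM (log2 change -1.23), Tk1 from 27 ± 1.51 to 11.3 ± 0.830 FPKM (log2 change -1.18) and Mcm7 from 158 ± 3.40 to 69.3 ± 4.17 FPKM (log2 change -1.18). Mitotic genes fell less, 18 of 24 lower and none at 2-fold, led by Cdc20 from 188 ± 4.08 to 97.3 ± 2.38 FPKM (log2 change -0.94). Mycn, a driver of stem cell proliferation, fell from 42.1 ± 2.97 to 7.32 ± 0.216 FPKM (log2 change -2.37), Myc from 10.4 ± 0.800 to 2.52 ± 0.245 FPKM (log2 change -1.70), Cdk4 from 171 ± 3.30 to 67.9 ± 6.46 FPKM (log2 change -1.32) and Ccnd1 from 13.9 ± 0.592 to 4.87 ± 0.625 FPKM (log2 change -1.35). Ccnd2 rose from 0.635 ± 0.0606 to 3.97 ± 0.0673 FPKM (log2 change 1.60), the CDK inhibitor Cdkn2b from 3.41 ± 0.324 to 11.9 ± 0.590 FPKM (log2 change 1.55) and Cdkn2c from 1.92 ± 0.480 to 5.64 ± 0.241 FPKM. Of 21 cyclins, CDKs, inhibitors and pocket proteins 9 rose and 10 fell, beside 33.6% and 38.6% of all genes. Among the 21, 1 was tested through the RA_control and 1 through the mESC_control libraries alone. Of the other 19, 8 rose and 9 fell.

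Trp53 itself fell, from 116 ± 10.4 to 22.4 ± 1.44 FPKM (log2 change -2.33). Of 18 tested members of the p53 target list, which holds Trp53 itself, 9 fell, Trp53 among them, and 3 rose (7 rose as TPM or plain FPKM). Over all genes 38.6% fell and 33.6% rose. Mdm2 was not called (21.0 ± 1.15 and 19.9 ± 1.07 FPKM). Gdf15 fell from 6.44 ± 0.828 to 1.51 ± 0.204 FPKM (log2 change -1.57). Of 23 BCL2 family and caspase genes 8 fell and 4 rose, none at 2-fold, beside 38.6% and 33.6% of all genes. Bid and Bok were lower (log2 changes -0.98 and -0.93) and Casp6 higher (0.62). As TPM the split turned to 4 lower and 11 higher, and the median changed sign, as it did for the p53 list.

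In the unfolded protein and integrated stress list 7 of 19 rose and 8 fell (5 fell as TPM or plain FPKM), beside 33.6% and 38.6% of all genes, and the 2 at least 2-fold higher were transcription factors: Ddit3 (CHOP) measured 10.47, 13.1 and 11.2 FPKM in mESC_control and 76.8, 71.3 and 84.9 FPKM in RA_control, and Atf3 1.48, 1.45 and 1.46 FPKM in mESC_control and 11.1, 9.10 and 11.03 FPKM in RA_control, neither with overlap. Atf4, which lies upstream of both, was not called (99.3 ± 14.8 and 83.7 ± 2.12 FPKM), nor was Hspa5 (102 ± 7.01 and 107 ± 2.73 FPKM). In this stress list 1 member that rose had reached 1 FPKM in the RA_control libraries alone. Chaperones fell in 13 of 18 cases and rose in 1 (5 as TPM or plain FPKM), with Hsph1 from 14.9 ± 0.355 to 4.72 ± 0.357 FPKM (log2 change -1.48), Hsp90aa1 from 420.3 ± 25.1 to 206 ± 18.5 FPKM (log2 change -1.03) and the chaperonin subunit Cct3 from 116 ± 1.32 to 58.1 ± 3.57 FPKM (log2 change -0.99). Glutathione and antioxidant genes fell in 15 of 19 cases (9 as TPM or plain FPKM), with Sod2 from 54.9 ± 1.08 to 20.2 ± 1.01 FPKM (log2 change -1.40) and Gpx1 from 278 ± 6.57 to 113 ± 13.1 FPKM (log2 change -1.30), and Mgst1 rose from 1.07 ± 0.0722 to 5.08 ± 0.387 FPKM (log2 change 1.55). Cytosolic ribosomal protein genes, which have many near-identical pseudogenes, fell in 32 of 43 cases, none at 2-fold, and in 11 as TPM. Proteasome-labelled genes fell in 19 of 23 cases with 1 rising (median -0.52, and -0.29 as TPM).

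DNA methylation genes mostly fell. Tet1, which oxidises 5-methylcytosine, went from 19.5 ± 2.27 to 2.78 ± 0.332 FPKM (log2 change -2.43) and Tet2 from 7.08 ± 0.734 to 2.72 ± 0.262 FPKM (log2 change -1.12), and Tet3 was not called (1.90 ± 0.103 and 2.18 ± 0.173 FPKM). Of the de novo methylation genes Dnmt3b fell from 49.0 ± 1.61 to 16.2 ± 0.577 FPKM (log2 change -1.54) and Dnmt3l from 251 ± 3.996 to 102 ± 7.98 FPKM (log2 change -1.30), and Dnmt3a rose slightly, from 8.38 ± 0.398 to 10.4 ± 0.223 FPKM (log2 change 0.28). Trim28, which holds repeats silent, fell from 679.7 ± 30.1 to 211 ± 14.8 FPKM (log2 change -1.68), and its partner at imprinted loci, Zfp57, from 57.1 ± 3.12 to 22.8 ± 2.28 FPKM (log2 change -1.29). Over this list 10 of 16 fell, 7 at least 2-fold, and 3 rose (5 as TPM or plain FPKM), with a median of -0.83.

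Of 25 tested Polycomb genes 10 fell and 9 rose, beside 38.6% and 33.6% of all genes. Among the 25, 2 reached 1 FPKM in the RA_control libraries alone, and of the other 23, 10 fell and 7 rose. In PRC2, Eed fell from 43.5 ± 2.68 to 15.5 ± 0.798 FPKM (log2 change -1.43), Jarid2 from 64.0 ± 1.46 to 26.2 ± 1.199 FPKM (log2 change -1.26) and the methyltransferase Ezh2 from 29.0 ± 0.464 to 16.5 ± 0.901 FPKM (log2 change -0.78), and Suz12 was not called (26.8 ± 0.880 and 24.9 ± 3.13 FPKM). In PRC1, Pcgf2 fell from 24.3 ± 1.07 to 9.36 ± 0.621 FPKM (log2 change -1.29) and Cbx7 from 35.5 ± 1.41 to 23.3 ± 1.82 FPKM (log2 change -0.59). Other PRC1 members rose, Cbx8 from 0.843 ± 0.153 to 3.87 ± 0.0277 FPKM (log2 change 1.41) and Phc2 from 8.03 ± 0.536 to 20.7 ± 0.802 FPKM (log2 change 1.27). BAF remodelling genes fell in 13 of 18 cases and 1 rose (4 as TPM or plain FPKM): Arid1a went from 24.4 ± 2.46 to 11.4 ± 1.36 FPKM (log2 change -1.04), and the ATPase Smarca4 fell from 68.9 ± 3.47 to 43.3 ± 2.18 FPKM (log2 change -0.66) as the alternative ATPase Smarca2 rose from 0.239 ± 0.0538 to 1.32 ± 0.145 FPKM (log2 change 0.90). Smarca2 was the BAF gene that rose, and it reached 1 FPKM in the RA_control libraries alone. Genes of the hexosamine pathway and O-GlcNAc cycling split 6 up and 5 down of 12. Gfpt1 rose from 6.30 ± 0.576 to 12.5 ± 0.430 FPKM (log2 change 0.89) as its isoenzyme Gfpt2 fell from 31.8 ± 0.886 to 19.9 ± 0.821 FPKM (log2 change -0.65), and Gnpda1 fell from 78.0 ± 5.999 to 35.8 ± 1.61 FPKM (log2 change -1.10).

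Direction followed level. Among 2816 tested genes averaging under 2 FPKM, 68.4% of calls were rises, and the share fell through 58.6%, 42.4% and 28.2% to 14.3% in the 522 genes over 100 FPKM. As TPM the same classes ran from 77.3% to 31.1% and as plain FPKM from 76.9% to 30.3%, so the order of the classes did not depend on the scaling while the level of each did. The lowest class includes genes that were tested because they reached 1 FPKM in 1 group alone. Among domain labels with at least 20 tested genes, DEAD-box helicases (39 of 50 lower), WD40 proteins (45 of 70 lower) and RRM proteins (99 of 166 lower) leaned down, beside 38.6% of all genes. Their medians were -0.50, -0.34 and -0.30, and as TPM -0.31, -0.13 and -0.15. Homeobox (48 of 66 higher) and LIM genes (25 of 35 higher) leaned up, beside 33.6% of all genes. Hox genes are homeobox genes, and 14 of the 18 tested Hox genes reached 1 FPKM in the RA_control libraries alone. Part of the Homeobox count was therefore set by the filter and repeats the Hox list. For LIM genes this was not counted.

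**Figure D5:**
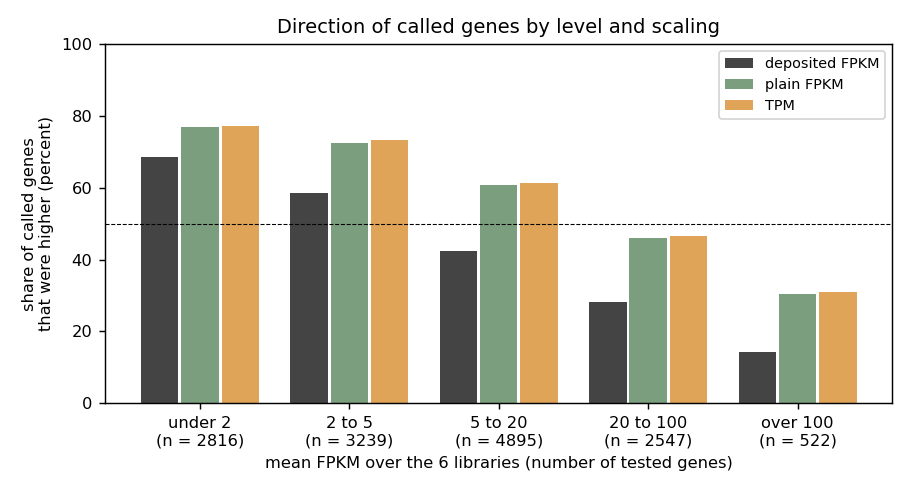
Share of called genes that were higher with RA (vertical, percent) in 5 classes of mean FPKM over the 6 libraries (horizontal), from the deposited FPKM, from plain FPKM and as TPM, with a dashed line at equal shares. Under each scaling the share falls from the lowest class (68.4%, 76.9% and 77.3%) to the highest (14.3%, 30.3% and 31.1%).

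The same RA step was also applied to cells pre-treated with the inhibitor, in libraries that share none with the comparison above. Of the 2034 genes called at least 2-fold without inhibitor, 2019 moved in the same direction with it, and 1958 were also called in that direction. These genes were picked for large changes, and the same counts over all tested genes were not made. The agreement can therefore not be called particular to them. The difference of the responses was called for 1153 of 14019 genes (8.22%), for 739 without RA_control replicate 1 and for 763 without mESC_control replicate 2. Cyr61, Ctgf and Rhob rose less in inhibitor-treated cells (differences of log2 changes -0.99, -0.97 and -0.75, adjusted p = 0.00482, 0.00201 and 0.00291), and Tdgf1 and Nanog fell further (-1.01 and -0.52, adjusted p = 0.000325 and 0.00291). For Crabp2, Hoxb4, Tdh and Zfp42 no difference was called (-0.29, 0.05, 0.11 and -0.14, adjusted p = 0.308, 0.809, 0.644 and 0.257).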

How the data were processed

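The sources used here do not state poly(A) selection or strand use. Total RNA was taken with TRIzol and libraries were made with a NEBNext Ultra kit, per the labels' protocols. HISAT2 2.0.5, featureCounts 1.5.0 and the build GRCm38 are named in the submitters' processing notes. The authors deposited 1 table of FPKM per gene and library, with coordinates and domain labels. FPKM and gene length gave back whole fragments for 100% of values, and these show that the deposited FPKM carry a scaling between libraries (1.06 to 1.08 in mESC_control and 0.883 to 0.934 in RA_control, as fragments over those an unscaled FPKM would imply). It was kept, and plain FPKM and TPM were tried as alternatives.

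Tests were limma (lmFit and eBayes with trend; limma 3.58.1, R 4.3.3) on log2(FPKM + 1) in 12 libraries of 4 groups, with two-sided p-values adjusted for all 14019 genes (Benjamini-Hochberg, threshold 0.05). Library summaries had exact permutation tests. Python 3.11.15, pandas 2.3.3, numpy 2.4.6, scipy 1.17.1 and matplotlib 3.10.9 did the rest. Tested on data simulated for this comparison (12841 genes), the fit called 72.7% of genes changed 1.5-fold, 95.3% of those changed 2-fold and 98.5% of those changed 4-fold, and 13 of 186 calls were false. The changed genes (66, 64 and 65) were drawn from well-counted genes only, in groups otherwise equal. These rates therefore do not carry over to genes with few fragments, or to data in which most genes moved. Errors in the text are SD with n = 3 unless SE is written. The alternatives changed the pseudocount (0.1), the filter (none, or a mean of at least 5 FPKM) and the scaling (median-of-ratios, TPM and, added after seeing the data, plain FPKM). Others were a fit of 6 libraries, no variance trend, a replicate block, limma-voom on recovered fragments, and leaving out each library.

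Named genes were the 12 largest rises and 12 largest falls among called protein-coding genes whose groups did not overlap and that averaged at least 5 FPKM in a group, up to 4 called members of each list by size of change, 20 fixed genes, every Hox gene, the 6 largest rises and 6 largest falls of non-coding genes, and genes with a DR5 repeat. A few of them are not reported here, though list counts include them. The genes and lists were chosen with earlier results of these data known. The reference table held the Ensembl ID of 13650 tested genes, and 9558 matched a RefSeq promoter by symbol. Gene coordinates are those of the deposited table, and promoter coordinates those of RefSeq (GRCm38.p6).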

Additional observations from a re-analysis of the deposited data

Results flagged for a closer look

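For 16 of 33 named genes tested, the RA response of inhibitor-treated cells differed from that of untreated cells by limma's test of the difference (adjusted p under 0.05), beside 1153 of all 14019 genes (8.22%). Most of the 33 were chosen for large responses without inhibitor, so the counts are not comparable. Values are the log2 change with inhibitor minus that without, over 3 libraries per group. Among genes that rose, the difference was -0.99 for Cyr61, -0.97 for Ctgf, -1.18 for Acta1, -0.75 for Rhob, -0.64 for Pmp22 and -0.70 for Hoxb1, all rising less with inhibitor. It was 0.56 for Cyp26a1, 0.45 for Zfp703, 0.32 for Stra8 and 0.50 for Cdx1, all rising more. Among genes that fell, the difference was -1.01 for Tdgf1, -0.56 for Socs3, -0.52 for Nanog and -0.32 for Sox2, all falling further. It was 0.51 for L1td1 and 0.30 for Esrrb, both falling less.

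Of these 16 genes, 10 lost the call under at least 1 alternative: Cyp26a1, Hoxb1, Acta1, Pmp22, Zfp703, Stra8, Esrrb, L1td1, Sox2 and Cdx1. The largest adjusted p reached was 0.631 for Cyp26a1 (lost in 8 alternatives), 0.732 for Hoxb1 (2), 0.397 for Zfp703 (8), 0.13 for Acta1 (1) and 0.106 for Cdx1 (9).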

How the results depend on the processing

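Not all genes named in the text were followed one by one through the alternatives. Of 199 that were called and followed, 198 were called in the same direction in each of the 16 alternatives that tested them. The exception was Thy1 (adjusted p = 0.21 as TPM and 0.145 as plain FPKM). Most of the 199 were picked for the size of their change, so the count says little about smaller changes. A mean of at least 5 FPKM, which tests fewer genes, gave 6167 calls, 2205 of them higher (35.75%), and 1039 at 2-fold (386 higher). Higher genes were 62.92% of calls as TPM and 62.37% as plain FPKM, with 2089 at least 2-fold higher as TPM and 570 at least 2-fold lower as plain FPKM, in place of 1103 and 931. A pseudocount of 0.1, which shrinks low genes less, gave 3122 at 2-fold (1757 higher), and limma-voom 3229 (1822 higher and 1407 lower). Without each library in turn the calls numbered 9602 to 9833. Those of a difference between the responses numbered 739 to 1014 against 1153, with 739 without RA_control replicate 1 and 763 without mESC_control replicate 2. The cause was not tested. Of 88 counts over gene lists, 1311 values lay within 1.5 times the main one and 97 did not.

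Replicate numbers did not pair the samples: deviations of same-numbered libraries correlated at -0.010, -0.033 and 0.032. With the replicate number as a block, 10229 genes were called (4735 higher and 5494 lower), 2031 of them at 2-fold, and 1224 differences of the responses. A fit of the 6 libraries cannot give that difference. Genes with few fragments are limited by depth, since 1 FPKM of a short transcript rests on few fragments.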
